A study of Mus musculus with 4 samples.

Results

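Pfkfb3, Pgk1 and Fbp1, enzyme genes of the breakdown and synthesis of glucose, were followed by gene name through the RNA-seq tables of mouse mammary tumours with and without miR-9, and all 3 were among the 1142 genes those tables held. The tumours came from female MMTV-PyMT mice, in which the promoter of mouse mammary tumour virus drives the middle T antigen of polyoma virus, mainly in mammary epithelium. All animals shared a mixed C57BL/6 background and the controls were littermates. The 4 samples were 2 control tumours without the knockout (controls 1 and 2) and 2 tumours with a knockout of miR-9 exon 1 (knockouts 1 and 2). The mice obtained for breeding were heterozygous, and whether the knockout tumours carried 1 or 2 altered copies, the age of the animals and how many animals stood behind each sample are not given. The p-values therefore cover the spread between these samples alone.

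Glycolysis splits glucose into pyruvate, and gluconeogenesis runs the same path backwards with its own enzymes at the irreversible steps. Pfkfb3 encodes the kinase-dominant enzyme that makes fructose bisphosphate of the 2,6 form, a small molecule that activates phosphofructokinase, the committed step of glycolysis, and inhibits fructose bisphosphatase. Fbp1 encodes that bisphosphatase, which undoes the committed step and is known from liver and kidney. Pgk1 encodes phosphoglycerate kinase, which works in both directions of the pathway and yields ATP when glucose is broken down. In many tissues Pfkfb3 and Pgk1 are induced by low oxygen through the hypoxia-inducible factors. miR-9 is a microRNA, which pairs through its seed (bases 2 to 8) with messenger RNAs and lowers them.

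The tables gave read counts that the authors had divided by 1 size factor per sample (normalised reads), and the value of a single read placed the relative depth of the libraries between 0.885 and 1.11. The listed genes held 458335 to 697334 reads per sample. Apart from genes with no read in a group, the smallest fold between group means was 2.0, which makes the table a selection taken on these same samples. Of the 1142 genes, 440 were lower in knockout tumours (38.5%) and 700 higher (61.3%) at an adjusted p under 0.05 from limma on log2(value + 1). With 99.8% of genes called in one direction or the other, a call by itself says little about a listed gene. The median log2 change over all listed genes was 1.23. Size factors estimated from the listed genes alone moved that median to 0.48 (TMM) or 0.13 (DESeq2). They cut the genes called higher to 248 or 122, 35.9% and 21.6% of all calls against 61.4% with the deposited factors. Both scalings assume that most genes are unchanged, which a table selected for difference does not meet. None of the 8 transcript names looked up for the miR-9 loci was listed, and the loss of miR-9 could not be checked here. Of the luminal markers of mammary epithelium, Krt19 was listed at 3459 and 6051 in control and 13167 and 14459 in knockout tumours, and Krt8, Krt18 and Epcam were not in the table.

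All 3 enzymes were lower in both knockout tumours than in either control: Fbp1 fell 11-fold, Pfkfb3 2.42-fold and Pgk1 2.04-fold. Groups that did not overlap were the case for 99.9% of the listed genes, 38.6% in this direction. These folds rest on the deposited size factors. Factors estimated from the listed genes gave larger decreases, with log2 changes for Pfkfb3 of -2.05 (TMM) and -2.42 (DESeq2) against -1.25, for Pgk1 of -1.82 and -2.20 against -0.98, and for Fbp1 of -4.19 and -4.55 against -3.43. The glycolytic activator and the gluconeogenic enzyme it restrains therefore differed in the same direction in these tumours. In bulk tissue, fewer cells of a type and less RNA per cell cannot be told apart.

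**Figure D1:**
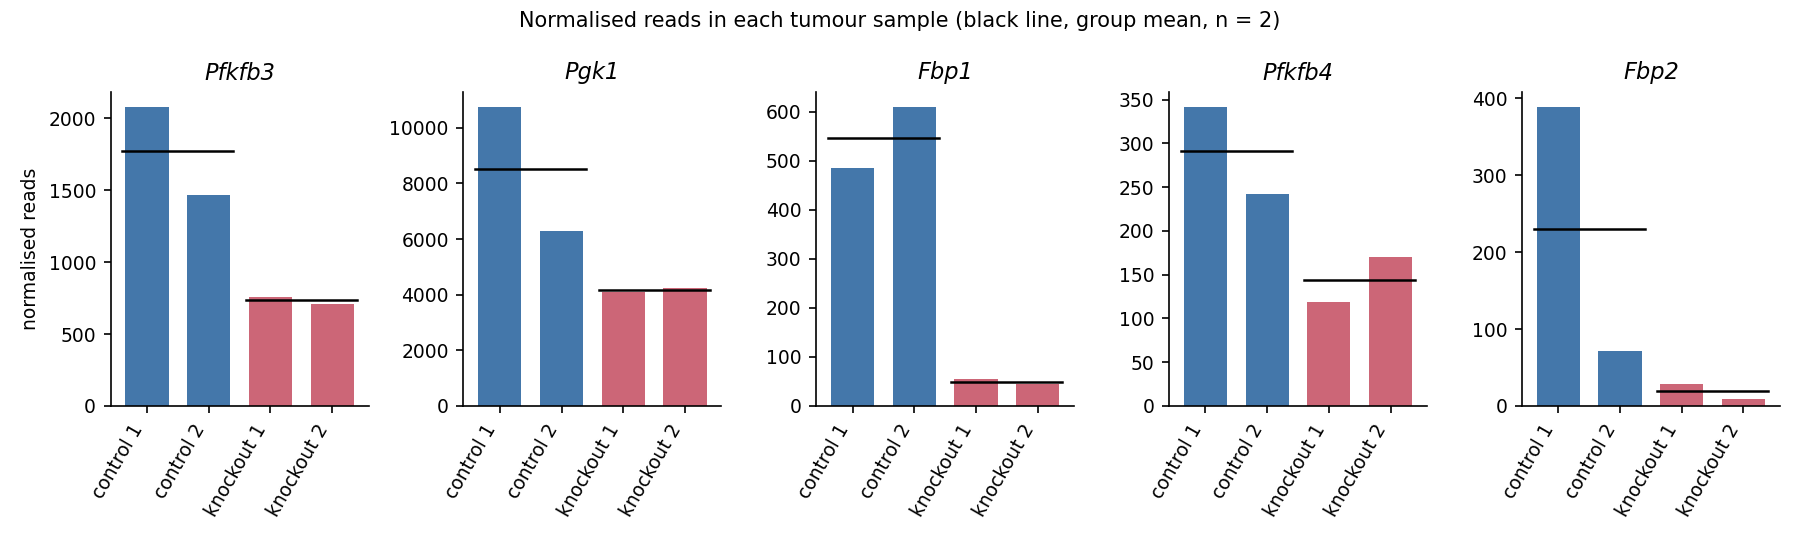
Normalised reads (y axis, linear, a separate scale per panel) of Pfkfb3, Pgk1, Fbp1 and the paralogues Pfkfb4 and Fbp2 in the 2 control and 2 knockout samples, with the group mean as a black line. In every panel both knockout bars lie below both control bars, from 54.2 and 45.1 against 485 and 610.1 for Fbp1 to 4107 and 4233 against 10750.0 and 6299 for Pgk1.

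Pfkfb3 (ENSMUSG00000026773, chr2:11471433-11554077, minus strand, GRCm38) was measured at 2079 and 1469.8 normalised reads in controls 1 and 2, and at 756 and 710.4 in knockouts 1 and 2. The lowest control stood 1.94-fold above the highest knockout. The means were 1775 ± 431 and 733 ± 32.5 (± SD with n = 2 per group, here and below wherever ± follows a level). The log2 change was -1.25 ± 0.32 (SE), with a 95% interval of -1.99 to -0.52 and a limma adjusted p of 0.00914. Control 1 exceeded control 2 by 1.41-fold, whereas the knockouts differed by 1.06-fold. The 2 genes annotated inside the Pfkfb3 locus, the antisense gene Gm10851 and the unclassified Gm37975, share 9131 and 2099 bases of it, introns included. Gm37975 lies on the same strand as Pfkfb3, so reads in an exon of both could belong to either. For Gm10851, on the other strand, the same holds because no source states a strand-keeping library.

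Pfkfb4 encodes another enzyme of the same family. It was at 342 and 242 in control and 119 and 169.7 in knockout tumours (ENSMUSG00000025648, chr9:108991778-109032228, plus strand). The groups were separate, with the lowest control 1.42-fold above the highest knockout. The mean fell 2.02-fold, with a log2 change of -1.01 ± 0.38 (limma adjusted p = 0.0276). That call rested on control 1, without which the log2 change was -0.76 (limma adjusted p = 0.105). Levels per kilobase, here and below, used the gene length given with the values. It was 7561 bases for Pfkfb3 and 4875 for Pfkfb4, shorter than the span of either locus. Per kilobase, Pfkfb3 stood at 235 ± 57.0 normalised reads in the controls and Pfkfb4 at 59.8 ± 14.5. Pfkfb3 was thus the more abundant of the 2 listed members of the family. In the knockouts they stood at 97.0 ± 4.29 and 29.6 ± 7.31. Pfkfb1, Pfkfb2 and the bisphosphatase Tigar were not in the table and were not analysed here.

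Pgk1 (ENSMUSG00000062070, chrX:106187100-106203699, plus strand) was at 10750.0 and 6299 normalised reads in control tumours against 4107 and 4233 in knockout tumours. Control 1 was 1.71-fold above control 2, and the knockouts were within 1.03-fold of each other. The lowest control lay 1.49-fold above the highest knockout. Means were 8525 ± 3147 and 4169.8 ± 89.0, and the log2 change was -0.98 ± 0.37 with a 95% interval of -1.82 to -0.14 (limma adjusted p = 0.0276). Its fold stood just above the smallest of the table. Without control 1 the log2 change was -0.60 (limma adjusted p = 0.0396), and without the abundance trend in the variance limma gave an adjusted p of 0.0577. At 3799 ± 1402 normalised reads per kilobase in the controls and 1858 ± 39.7 in the knockouts, Pgk1 was the most abundant of the 3 enzymes. Its transcript is also the one most open to shared reads: 68.0% of the 50-base stretches of its longest coding transcript occur unaltered in transcripts of 5 other annotated genes, nearly all of them in the pseudogene Pgk1-rs7. For Pfkfb3 that share was 0.61%, and for Fbp1 no stretch was shared. How reads with several matches were counted is not given in the sources used here, so the level of Pgk1 is uncertain to that extent.

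Fbp1 (ENSMUSG00000069805, chr13:62864753-62888282, minus strand) dropped from 485 and 610.1 normalised reads in control tumours to 54.2 and 45.1 in knockout tumours. These came from 484, 540, 60 and 47 reads, and the exact Poisson 95% intervals of the last 2 counts, 45.8 to 77.2 and 34.5 to 62.5, cover counting error only. The lowest control was 8.95-fold above the highest knockout, far beyond the 1.26-fold difference between the controls and the 1.2-fold difference between the knockouts. The mean fell from 548 ± 88.4 to 49.6 ± 6.47, a log2 change of -3.43 ± 0.36 with a 95% interval of -4.26 to -2.61 (limma adjusted p = 0.0011). By that change Fbp1 ranked 56th among the 442 genes with a lower estimate, against 322nd for Pfkfb3 and 438th for Pgk1, and the median log2 change of those 442 genes was -1.63. Unlike the other 2 enzymes, Fbp1 was higher in control 2 than in control 1. Leaving out either knockout ended the call of Fbp1 (limma adjusted p = 0.0748 and 0.0861), of Pfkfb3 (0.123 and 0.15) and of Pgk1 (0.244 and 0.226), as it did for every other gene called lower.

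Fbp2 encodes the bisphosphatase known from skeletal muscle. It is the neighbour of Fbp1, on the same strand with 6330 bases between the genes (ENSMUSG00000021456, chr13:62836877-62858422). It was at 389 and 71.2 in control and 28.9 and 9.59 in knockout tumours. The groups did not overlap, but control 1 was 5.46-fold above control 2. The mean fell 11.9-fold, from 230.0 ± 225 to 19.3 ± 13.7, with a log2 change of -3.24 ± 0.82 (limma adjusted p = 0.0089), which without control 1 was -2.02 and not called (limma adjusted p = 0.0992). All 6 skeletal muscle markers (Acta1, Ckm, Myh1, Tnnt3, Mylpf and Actn3) were in the table and lower in the knockouts. Their summed level there was 26.8 to 57.8 against 551 to 820.2 in the controls. Both knockouts lay below both controls for 38.6% of all listed genes. Myh1 had no read in knockout 1. Among the controls, 5 of the 6 markers were higher in control 2, the order opposite to that of Fbp2. The part of muscle RNA in the level of Fbp2 was not tested.

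Markers of other cell types were mostly higher in the knockouts, opposite to the 3 enzymes. So were 61.3% of all listed genes at a limma adjusted p under 0.05, with 38.5% lower. Of 7 hepatocyte markers only Fgb, a fibrinogen chain, was in the table, at 32.1 and 133 in control and 2509 and 4037 in knockout tumours. Of 7 luminal epithelium markers 4 were listed and all were higher in the knockouts, with a summed level of 18995 to 22328 against 4584 to 7718 in the controls. Of 6 basal epithelium markers 5 were listed, 4 higher and Krt14 lower, with sums of 23197 to 23553 against 6130.1 to 7739. Of 7 macrophage markers 5 were listed and higher (35581 to 42423 against 9520.4 to 16420). Apoe made up most of these sums, at 28373 and 33805 in knockout and 6562 and 11799 in control tumours. Of 5 adipocyte markers 2 were listed and higher, Lep and Plin1 (129 to 468 against 12 to 33.9). No listed marker of these 5 lists was at 0 in any sample, and no endothelial marker of 4 was in the table. The part of these cell types in the levels of the 3 enzymes was not tested.

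**Figure D2:**
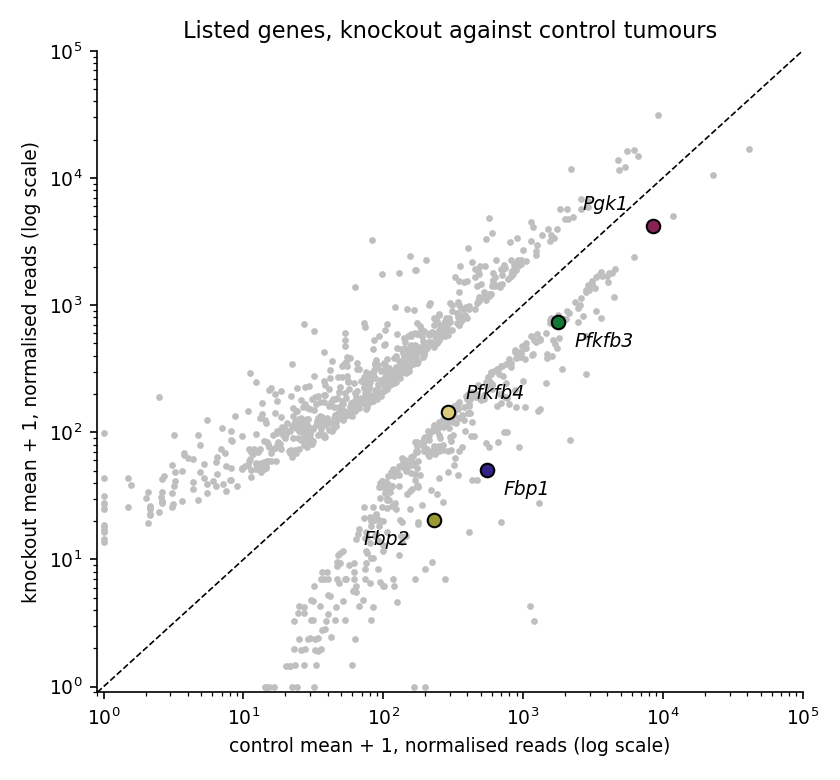
Mean of the 2 knockout samples against the mean of the 2 control samples for all 1142 listed genes, both in normalised reads plus 1 on log axes, with the dashed line marking equal means. Fbp1 and Fbp2 lie well below the line, at 49.6 against 548 and 19.3 against 230.0, while Pgk1, at 4169.8 against 8525, lies at the edge of the gap that the selection of the table left around it.

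Apart from the added 1, ratios between the enzymes within a sample do not depend on the size factors. The log2 ratio of Fbp1 to Pfkfb3 stood at -2.10 and -1.27 in control and at -3.78 and -3.95 in knockout tumours. The groups were separate, and the ratio changed by -2.18 on the log2 scale, so Fbp1 was lower in relation to Pfkfb3 by a factor of 4.53. The log2 ratio of Fbp1 to Pgk1 went from -4.47 and -3.37 to -6.22 and -6.52, a change of -2.45. The log2 ratio of Pgk1 to Pfkfb3 was 2.37 and 2.10 in control and 2.44 and 2.57 in knockout tumours, a change of 0.27 against an SD of 0.19 in the controls and 0.095 in the knockouts. The groups were separate for these ratios too, for the last by the gap from 2.37 to 2.44. Each of the 3 ratios gave p = 0.333 in the two-sided exact permutation test over the samples, also after adjustment over the 3, which is the smallest p that 2 samples against 2 can give. Per kilobase, Fbp1 and Pfkfb3 were at similar levels in control 1 (285 against 275 normalised reads), while in control 2 Fbp1 was the higher (358 against 194). In both knockouts Fbp1 was the lower (31.9 and 26.5 against 100.03 and 94.0).

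**Figure D3:**
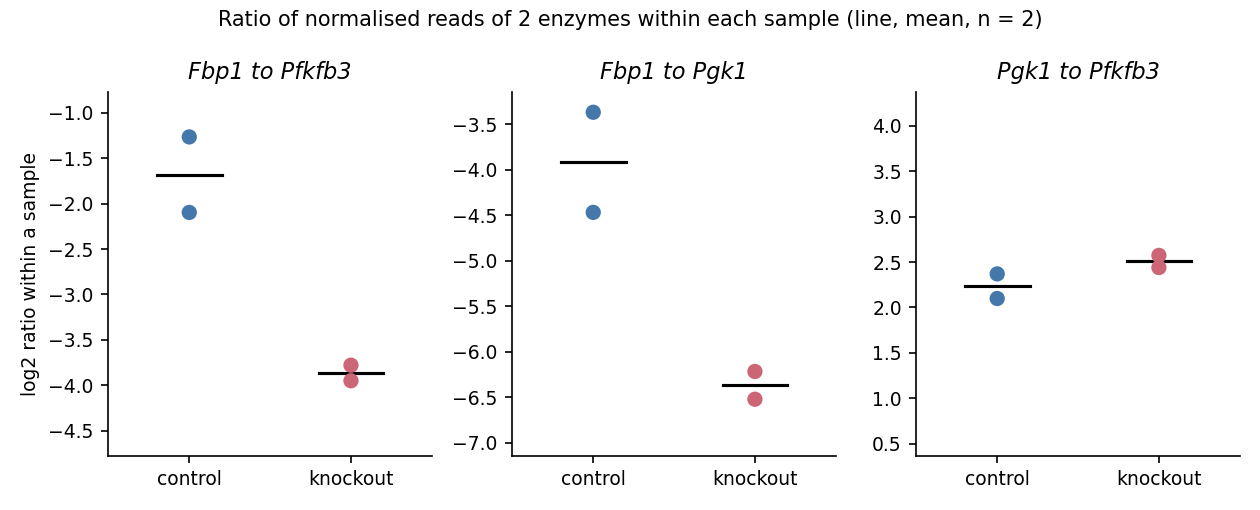
Log2 ratio of normalised reads of 2 enzymes within each sample (y axis, with the same span in each panel), for 2 control and 2 knockout samples, with the mean as a line. The ratio of Fbp1 to Pfkfb3 went from a mean of -1.68 to -3.86 and that of Fbp1 to Pgk1 from -3.92 to -6.37, whereas that of Pgk1 to Pfkfb3 moved from 2.23 to 2.51.

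The profiles nearest to each enzyme, by the root mean square difference of log2(value + 1) centred on each gene's mean over the 4 samples, were those of Nepro (0.03), Obsl1 (0.05) and Ppfia3 (0.05) for Pfkfb3. For Pgk1 they were Epha7 (0.04), Rad54l (0.05) and Pop1 (0.05). Fbp1 had no neighbour as close: the nearest were Gm49330 (0.21), Gm10243 (0.26) and Bend4 (0.30). Gm49330 was at 0.90 and 0.96 normalised reads in the knockouts, so its profile turns on the added 1: its log2 change of -3.75 was -4.61 with 0.1 added and -2.34 with 5. Pfkfb3 and Pgk1 differed from each other by 0.17, and Fbp1 from them by 1.13 and 1.29. With 4 samples in a table selected for difference, many genes have like profiles.

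The promoter sequences of the 3 enzymes are shown because Pfkfb3 and Pgk1 are known hypoxia-induced genes and all 3 enzymes were lower together. The letters ACGTG, a form of the core that hypoxia-inducible factors bind, were searched on both strands in the RefSeq promoters of build GRCm38.p6. Other forms of the core were not searched for. Each window ran from 250 bases before to 50 after a start site. All 3 genes had an entry, Pfkfb3 with 2 start sites. Matches are in capitals, CACGT being the same letters on the other strand and CACGTG an overlapping match on both.
Pfkfb3, upstream start, chr2:11553880-11554179, minus strand: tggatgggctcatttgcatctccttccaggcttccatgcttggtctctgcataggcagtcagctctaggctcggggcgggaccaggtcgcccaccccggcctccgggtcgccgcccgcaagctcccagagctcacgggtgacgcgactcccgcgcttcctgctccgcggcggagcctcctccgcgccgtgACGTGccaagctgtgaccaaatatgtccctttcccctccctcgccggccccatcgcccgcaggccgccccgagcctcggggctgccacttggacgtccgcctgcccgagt
Pfkfb3, downstream start, chr2:11502041-11502340, minus strand: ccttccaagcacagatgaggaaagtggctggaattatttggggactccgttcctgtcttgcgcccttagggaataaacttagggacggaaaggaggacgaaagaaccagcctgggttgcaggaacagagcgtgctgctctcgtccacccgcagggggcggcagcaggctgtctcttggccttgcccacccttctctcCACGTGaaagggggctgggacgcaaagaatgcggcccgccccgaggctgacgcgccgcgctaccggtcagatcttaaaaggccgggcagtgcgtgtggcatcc
Pgk1, chrX:106186850-106187149, plus strand: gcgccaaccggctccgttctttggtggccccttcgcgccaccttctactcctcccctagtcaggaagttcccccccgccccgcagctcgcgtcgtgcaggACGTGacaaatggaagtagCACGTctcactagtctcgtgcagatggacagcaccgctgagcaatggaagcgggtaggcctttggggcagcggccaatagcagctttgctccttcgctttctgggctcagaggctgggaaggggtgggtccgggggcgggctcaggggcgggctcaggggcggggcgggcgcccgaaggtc
Fbp1, chr13:62888233-62888532, minus strand: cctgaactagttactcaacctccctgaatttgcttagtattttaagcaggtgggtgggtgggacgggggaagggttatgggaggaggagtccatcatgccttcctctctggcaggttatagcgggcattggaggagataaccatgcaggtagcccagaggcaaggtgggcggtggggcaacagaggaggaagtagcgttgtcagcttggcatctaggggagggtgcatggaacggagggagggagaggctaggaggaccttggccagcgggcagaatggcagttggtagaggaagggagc
The matches began 60 and 53 bases before the upstream and downstream starts of Pfkfb3, and 150 and 131 bases before that of Pgk1. The Fbp1 window held no match. The paralogues had the other pattern, with CACGTG beginning 42 bases before the start of Fbp2 and no match in the window of Pfkfb4. Of 32851 RefSeq promoters of this length, 19.6% held at least 1 match and 2.66% held 2 or more separate ones. The share was 23.6% of the 385 promoters of listed genes that were lower in the knockouts and 18.0% of the 656 of those that were higher. Among the lower genes of the glucose and hypoxia lists, which hold genes picked as known hypoxia targets, it was 62.5% (15 of 24 promoters). Those promoters, of 18 genes, include the windows of the 3 enzymes printed above. Among the higher genes of these lists it was 33.3% (1 of 3 promoters). A match is a description of the letters and not a site shown to be bound, and gene-level reads do not tell which start of Pfkfb3 was used.

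The seed of miR-9-5p was compared with the messenger RNAs in the same way, and no other product of the miR-9 loci was searched for. Mature miR-9-5p is encoded by Mir9-1, Mir9-2 and Mir9-3 on chromosomes 3, 13 and 7, and the labels do not say which of them was altered. Its sequence is given with the seed in capitals, beside the 2 matches of Pfkfb4 (build GRCm38, plus strand, matched bases in capitals), the one paralogue listed that had any.
miR-9-5p: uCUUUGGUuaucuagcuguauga
Pfkfb4, chr9:109031070-109031098: ttggtgcacacACCAAAGtgcttatggaa
Pfkfb4, chr9:109031882-109031910: aggcaaagaccACCAAAGcctttttcctc
In the longest annotated 3' UTR of each gene in GENCODE M21, the matches ACCAAAG or CCAAAGA were absent from Pfkfb3 (3063 bases), Pgk1 (420 bases) and Fbp1 (223 bases). Among listed genes with a 3' UTR of similar length, within 1.5-fold, 48.0%, 10.5% and 1.77% held a match. Fbp2 had none in 209 bases. Pfkfb4, which has 2 matches in 1840 bases, was lower in the knockouts. Of listed genes with a 3' UTR of similar length to its own, 34.7% held a match. The part of miR-9 in its level was not tested.

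Few other genes of glucose metabolism were in the table. The lists used here were chosen with earlier results of these data known. Of 162 genes on the lists for glucose metabolism and its regulators, 15 were listed. Of these, 12 were called lower and 3 higher (limma), beside 38.5% and 61.3% of all listed genes. Their median log2 change was -1.16, against 1.23 over all listed genes and -1.63 over the 442 with a lower estimate. Without control 1, 7 of the 12 were called lower, and limma without the abundance trend called 9 on all samples. Without knockout 1 or knockout 2 limma called 0 of the 15, with 3 and 2 of the 12 lower at an unadjusted p under 0.05. Of 24 glycolytic enzymes only Pgk1 was listed, and none of 4 lactate dehydrogenases or of 23 enzymes of the tricarboxylic acid cycle. The levels of genes outside the table were not analysed here, so these counts say nothing of whether those genes differed.

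Both listed lactate carriers fell. Slc16a1, which moves lactate and pyruvate across the cell membrane, was at 1723 and 1663 in control and 543 and 449.6 in knockout tumours (3.41-fold lower, log2 change -1.77 ± 0.31, limma adjusted p = 0.00312). Its controls nearly coincided. Slc16a3, the lactate exporter of glycolytic cells, was at 420 and 193 against 73.2 and 69.0 (4.31-fold lower, limma adjusted p = 0.00668). Slc2a10, a glucose carrier family member, fell 2.24-fold, from 211 ± 24.2 to 94.2 ± 11.2. Slc2a4, the insulin-responsive glucose carrier of muscle and fat, rose 5.47-fold, from 46.1 and 81.3 to 322 and 375 (log2 change 2.48 ± 0.41, limma adjusted p = 0.00281), in the same samples in which both listed adipocyte markers were higher and the muscle markers lower. Their part in the level of Slc2a4 was not tested. Its log2 change was 1.73 with TMM and 1.395 with DESeq2 scaling on the listed genes.

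At the branches of the pathway, Pdk3, a kinase that restrains the entry of pyruvate into mitochondria, fell 2.26-fold: its controls stood at 1316 and 622 and its knockouts at 464 and 395 (limma adjusted p = 0.0277). Phgdh, the first enzyme of serine synthesis, which draws on the product of Pgk1, fell 2.02-fold, from 3121 ± 673 to 1541 ± 376 (limma adjusted p = 0.0183). Neither was called without control 1 (limma adjusted p = 0.0685 and 0.0775). Gfpt2, which feeds the hexosamine pathway, rose 3.64-fold, from 54.1 and 125 to 271 and 383, a call lost with TMM (edgeR adjusted p = 0.0509) and DESeq2 (0.191) scaling on the listed genes. Pgm5, a phosphoglucomutase relative known as a protein of cell junctions in muscle rather than an enzyme, rose 6.18-fold, from 102 ± 48.5 to 633 ± 69.6. Its log2 change of 2.70 was 1.93 and 1.59 under the same scalings.

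Of the regulators, Mlxipl, which encodes the glucose-sensing factor ChREBP, was at 385 and 114 in control and 78.6 and 74.8 in knockout tumours (3.25-fold lower, limma adjusted p = 0.0317). Without control 1 it was not called (0.113). Egln3, an oxygen-sensing hydroxylase that is itself induced by low oxygen, fell 2.60-fold, from 8214 and 4130.4 to 2432 and 2323. Of 21 hypoxia targets outside glycolysis, 10 were listed, 9 called lower and 1 higher, where 38.5% and 61.3% of all listed genes were called lower and higher. Their median log2 change was -1.71, against 1.23 over all listed genes and -1.63 over the 442 with a lower estimate. Stc2, stanniocalcin, was the one that rose, 15.8-fold, from 153 ± 62.6 to 2427 ± 634 (limma adjusted p = 0.00101). Its log2 change of 4.01 was 3.27 with TMM and 2.93 with DESeq2 scaling. Ak4, an adenylate kinase of mitochondria, fell 4.15-fold, from 990.1 and 549 to 202 and 169.

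**Figure D4:**
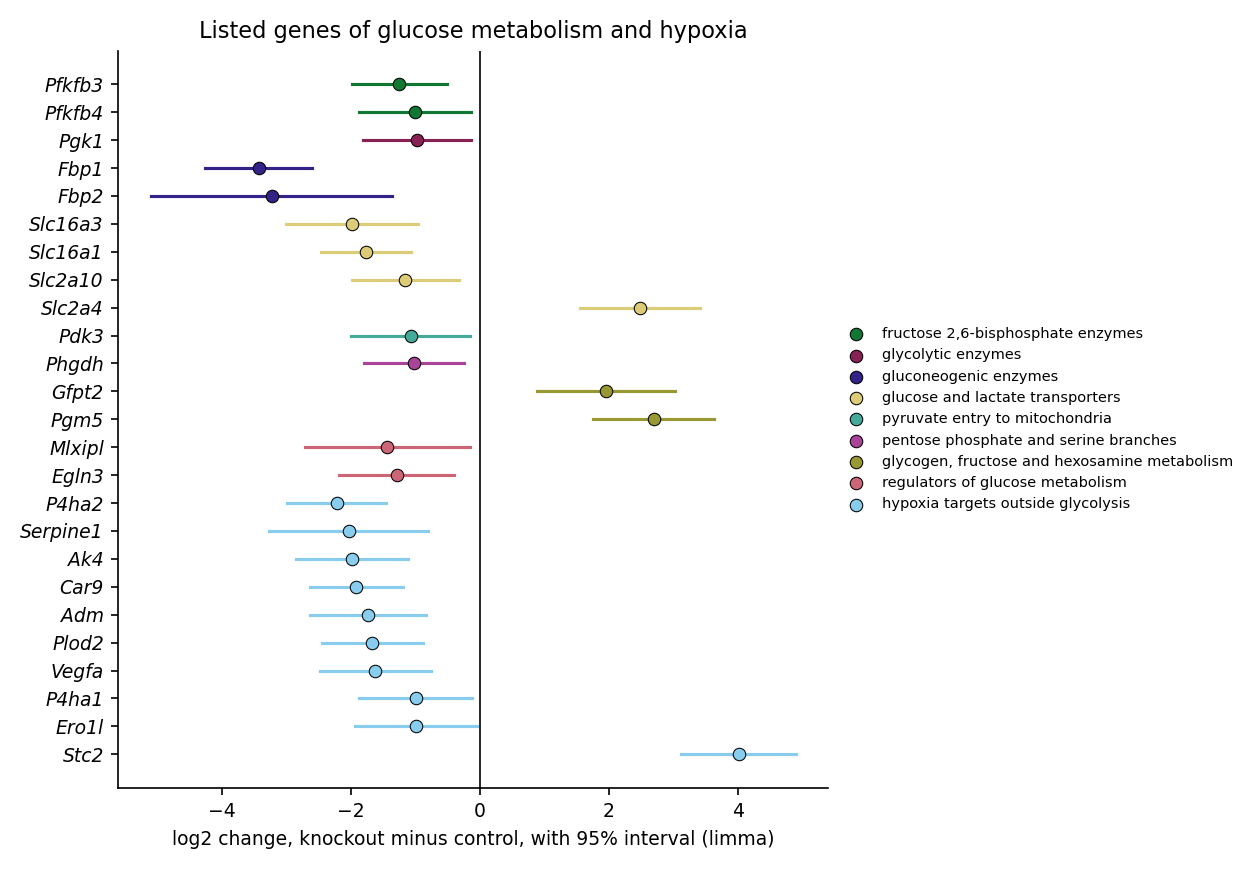
Log2 change from control to knockout (x axis) with its 95% interval from limma for the 25 listed genes on the lists of glucose metabolism, its regulators and hypoxia targets, coloured by list. 21 points lie left of 0, with Fbp1 at -3.43 the lowest, and 4 to its right, Gfpt2, Slc2a4, Pgm5 and Stc2.

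The controls were not alike for these genes. Of the 12 glucose list genes that fell, 11 were higher in control 1 than in control 2, Fbp1 being the exception, and so were all 9 hypoxia targets that fell, by 1.25-fold to 3.17-fold. Over all 442 listed genes with a lower mean, 67.2% were higher in control 1, with a median ratio of 1.28. In the knockouts Pfkfb3, Pgk1, Slc16a3, Mlxipl and Egln3 each differed by at most 1.06-fold between the samples. The other glucose list genes that fell differed more, from 1.18-fold for Pdk3 and Slc2a10 to 3.02-fold for Fbp2.

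**Figure D5:**
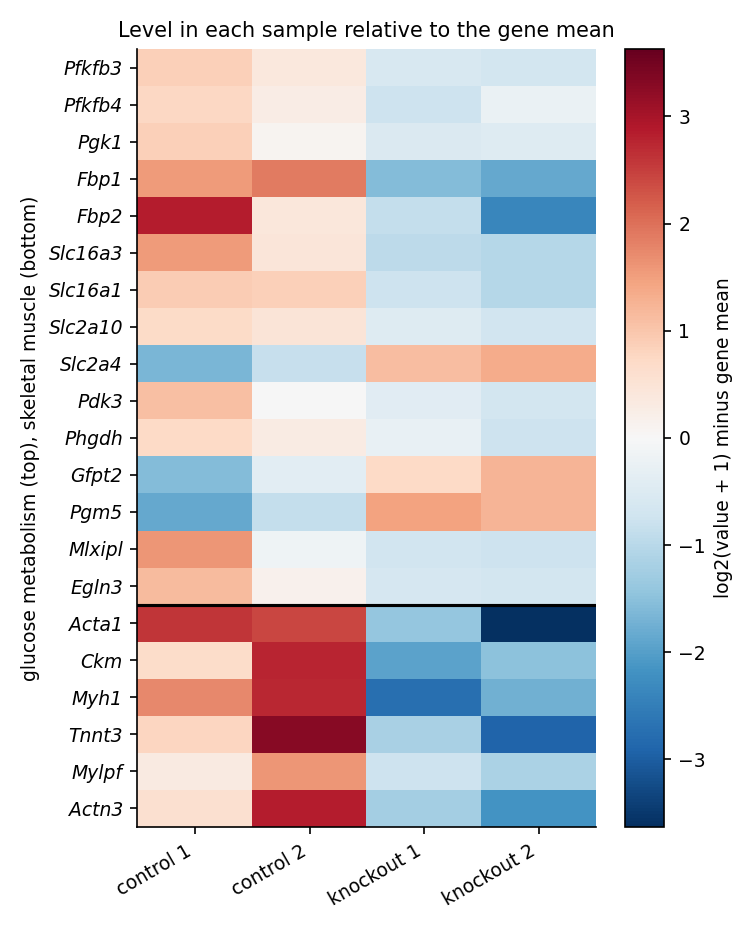
Log2(value + 1) minus the gene's mean over the 4 samples (colour) for the 15 listed genes of glucose metabolism and its regulators, above the line, and the 6 skeletal muscle markers, below it. Most of the upper genes are highest in control 1, whereas Fbp1 and 5 of the 6 muscle markers are highest in control 2.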

How the data were processed

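RNA-seq values of 4 tumour samples, 2 per genotype, were used. Per the labels, libraries were made with an Illumina TruSeq kit. Bowtie 0.12.2 and the builds hg38, GRCm38 and mm10 appear in the submitters' processing notes, without roles. The sources used here do not give the counter, strand setting, read length or criteria for listing genes. The deposited signal values behaved as gene counts scaled by 1 factor per sample: dividing by the smallest nonzero value gave whole reads for 100% of them (tolerance 1e-06). In control 1 that value, 1.002, is near 1, so its reads are less sure. Gene coordinates in 1097 of 1142 genes were identical to GENCODE M21 (GRCm38).

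limma 3.58.1 (R 4.3.3), with trend, was run on log2(value + 1) over all genes with a mean of at least 0.5, with Benjamini-Hochberg adjustment over all 1142. Such log2 changes understate the change of low genes. Folds are ratios of group means. Alternatives were other pseudocounts and filters, no trend, a replicate block, each sample left out, and edgeR 4.0.16 and DESeq2 1.42.0 on recovered reads. The script was tested on simulated data. Replicates differed beyond sampling noise (chi-square per degree of freedom 53.7 between controls, 13.3 between knockouts).

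The members and the 11 pathway and 7 marker lists were chosen with earlier results of these data known. Genes named were the members, every listed gene of the pathway lists and the 3 nearest profiles per member. Members of marker lists were named as controls. Python 3.11.15 was used for sequences and figures.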

Additional observations from a re-analysis of the deposited data

How the results depend on the processing

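The 3 enzymes kept their direction under every setting run. As their groups did not overlap, settings that keep the deposited factors could not have turned it. The log2 change without 1 sample ranged from -1.50 to -1.0 for Pfkfb3, -1.37 to -0.60 for Pgk1 and -3.60 to -3.27 for Fbp1, and the calls were lost without either knockout. TMM and DESeq2 scaling on the listed genes moved these changes further, to -2.05 and -2.42 for Pfkfb3, -1.82 and -2.20 for Pgk1 and -4.19 and -4.55 for Fbp1. The log2 change of each of the 34 named genes was lowered. So was the median over all listed genes, from 1.23 to 0.48 and 0.13, so the shift was not particular to the named genes. Pgk1 was not called by limma without trend (log2 change -0.98, adjusted p = 0.0577). Left-out samples gave 13 to 665 genes called higher and 0 to 405 lower (with knockout 1 or 2 left out, limma called 0 lower, against 182 and 155 at an unadjusted p under 0.05), 0 to 12 glucose list genes lower, 0 to 3 higher and 0 to 9 hypoxia targets lower. On the recovered reads of all samples with the deposited factors, edgeR called 700 genes higher and 442 lower. TMM (edgeR) and DESeq2 scaling on the listed genes left 248 and 122 genes higher. At an adjusted p of 0.01, 387 genes were higher, 197 lower and 5 of the glucose list genes lower. TMM and DESeq2 scaling assume that most genes are unchanged, which a table selected for difference does not meet. What lay behind the shifts with left-out samples was not tested. With the replicate number as a block, 700 genes were higher and 442 lower, and no call of a named gene was lost. Same-numbered samples share only a number (correlation of their deviations across genes 0.04). Without 1 sample, the ratio of Fbp1 to Pfkfb3 changed by -2.60 to -1.77, that of Fbp1 to Pgk1 by -3.0 to -1.90 and that of Pgk1 to Pfkfb3 by 0.14 to 0.41. Over the 34 named genes no setting turned a sign. As their groups did not overlap, only TMM and DESeq2 scaling could have done so. Both lowered every named change, so even they could have turned only the genes that rose. Outside left-out samples 10 calls were lost. The settings for genes other than the enzymes were added after the data were seen. The 2 samples per group limit precision. The folds, intervals and adjusted p-values make no allowance for the selection of the table on these same samples.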
